A study of Mus musculus with 12 samples.

Results

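The genes described here make cholesterol or sense, move and store it. They were taken by gene symbol from the liver expression table, with Sc4mol read as the older symbol of Msmo1, and 31 of its 18560 genes were found. The livers came from mice aged 12 months in 4 groups of 3 libraries each: wild-type males, OXR1A-/- males, wild-type females and OXR1A-/- females. The OXR1A-/- mice, called knockout below, lack OXR1A, an isoform of Oxr1, a gene that protects cells against oxidative damage. The title of the series ties the absence of OXR1A to fatty liver in males, and the comparison between genotypes asks how liver transcription differs without it. The sources used here give no promoter, strain or founder line for the deletion and do not state that each library of a group is a different animal. The p-values therefore cover only the variation among these libraries, which may be technical.

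Cells make cholesterol from acetyl-CoA through mevalonate, farnesyl diphosphate, squalene and lanosterol. The enzymes are switched on together by SREBP2, a transcription factor made as a precursor in the membrane of the endoplasmic reticulum. Scap escorts SREBP2 to the Golgi, where the proteases of Mbtps1 and Mbtps2 release its active part, and the Insig proteins hold Scap back when sterols are plentiful. Liver takes cholesterol in with lipoproteins, frees it from lysosomes through Npc1 and Npc2 and stores it as ester made by Soat enzymes.

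Values are FPKM, a read level corrected for how long a transcript is and how much was sequenced, so levels of different genes can be set side by side. Of the 31 genes, 30 had at least 1 FPKM in at least 3 libraries and were tested. The remaining gene, Idi2, a copy of the isopentenyl diphosphate isomerase gene next to Idi1 on chromosome 13, was listed at 0 to 0.06 FPKM in the 12 libraries. How the authors' counting divided reads that fit both copies is not given in the sources used here. Differences are given on the log2(FPKM + 1) scale, where low genes appear to change less than they do, with the standard error (SE). They were tested with limma over all 11514 genes that passed the same filter, and a gene is called at a Benjamini-Hochberg adjusted p under 0.05. A fold divides one group's mean FPKM by another's, and ± after a mean is the SD over 3 libraries.

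FPKM sums ran from 526203 to 667434 per library, and read totals were not stated. The hepatocyte markers were high in every library, with albumin (Alb) at 31720 to 45904 FPKM. Wild-type male 2 was poor in long transcripts relative to the other libraries. Its log2(FPKM + 1) values, minus the mean of each gene over the 12 libraries, fell with log2 transcript length (slope -0.21). Slopes in the other libraries were -0.09 to 0.12. Knockout male 3 held 0.82 FPKM of the female transcript Xist, against 0.04 to 0.08 in the other males. Wild-type female 1 and knockout female 1 held 1.89 and 0.85 FPKM of the Y-linked Eif2s3y, against at most 0.10 in the other females. Oxr1 as a whole gene stood at 17.9 ± 5.61 FPKM in wild-type and 23.4 ± 1.48 in knockout males, and at 18.5 ± 1.85 and 20.2 ± 0.642 in females, and these whole-gene values are no check on the missing isoform.

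Knockout male livers held more RNA of part of the cholesterol pathway. Of the 30 tested genes, 5 rose against wild-type males, 0 fell and 25 did not pass. All 5 encode enzymes: Hmgcs1 and Idi1 of the mevalonate steps, and Cyp51, Msmo1 and Nsdhl, which strip methyl groups from lanosterol. Over all tested genes 2.13% were called up, 0.426% down and 2.55% in either direction. The groups did not overlap in 13 of the 30, each time with knockout males above, against 21.2% of all genes, and in 0 with knockout males below, against 2.49%. The median log2 difference was 0.47 over the 30 genes and 0.19 over all genes tested.

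Among the mevalonate enzymes, Idi1, the isomerase that makes the reactive isoprene unit (GRCm38 chromosome 13, 8885606 to 8892396), was listed at 90.7, 56.5 and 78.5 FPKM in wild-type males and at 267, 204 and 191 in knockout males. Every knockout male library lay above every wild-type male. Idi1 rose 2.94-fold (log2 difference 1.55, SE 0.23, adjusted p = 0.00958 by limma). In females it stood at 85.0, 114 and 65.7 in wild type and at 69.5, 79.5 and 100.7 in knockout, and these ranges overlap.

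Hmgcs1, the cytosolic HMG-CoA synthase at the entry of the pathway (chromosome 13, 119690351 to 119708260), had 136, 72.8 and 134 FPKM in wild-type males and 325, 296 and 238 in knockout males. It rose 2.51-fold (log2 difference 1.36, SE 0.25, adjusted p = 0.0213 by limma). Wild-type male 2, the library poor in long transcripts, was the lowest, and without it the difference was 1.07 (adjusted p = 0.0386). In knockout males Hmgcs1 had the highest mean of the 31 genes, at 287 ± 44.4 FPKM, while in wild-type males Sc5d led at 226 ± 52.7.

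The other genes of the mevalonate stretch did not pass in males. Acat2, the cytosolic thiolase that starts the pathway, was at 65.2 ± 8.998 FPKM in knockout against 41.8 ± 4.26 in wild type (adjusted p = 0.0704 by limma), without overlap. Mevalonate kinase, Mvk, was at 12.7 ± 2.48 against 7.53 ± 1.11, and the decarboxylase Mvd at 20.8 ± 4.57 against 9.38 ± 1.04, also without overlap (adjusted p = 0.0982 and 0.117 by limma). For phosphomevalonate kinase, Pmvk, the order of the means was the other way, at 57.6 ± 15.4 against 64.3 ± 17.4, and the ranges overlapped. Its highest male library was wild-type male 2, the one poor in long transcripts, at 77.9 FPKM. The other wild-type males had 44.7 and 70.3. Fdps, which makes farnesyl diphosphate, overlapped too, at 286 ± 67.0 against 208 ± 51.3. Ggps1, the enzyme of the branch towards prenyl groups for proteins, was at 4.37 ± 0.626 against 3.47 ± 0.816.

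The squalene and lanosterol steps held 3 genes, and 0 of them were called. Squalene synthase, Fdft1, was at 55.9, 55.4 and 58.2 FPKM in wild-type males and at 94.05, 102 and 83.8 in knockout males. Squalene epoxidase, Sqle, was at 24.4, 15.7 and 25.3 against 44.1, 50.7 and 33.6. In both genes all knockout males lay above all wild-type males, with adjusted p = 0.0661 for Fdft1 and 0.132 for Sqle by limma. Lanosterol synthase, Lss, overlapped, at 23.5 ± 6.69 in knockout against 16.6 ± 5.29.

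After lanosterol, 3 of 8 genes rose in knockout males. Nsdhl, a dehydrogenase that removes methyl carbons from the sterol ring (chromosome X, 72918521 to 72958528), had 35.3, 38.8 and 46.0 FPKM in the wild-type males, against 92.9, 87.2 and 86.9 with the knockout. The knockout values lay close together, with a coefficient of variation of 3.77%, and the rise was 2.22-fold (log2 difference 1.14, SE 0.17, adjusted p = 0.00947 by limma). Cyp51, the lanosterol demethylase (chromosome 5, 4080674 to 4104697), went from 44.9, 33.5 and 45.6 to 102, 84.3 and 82.1, a 2.16-fold rise (log2 difference 1.10, SE 0.19, adjusted p = 0.0168 by limma). Msmo1, the methylsterol monooxygenase (chromosome 8, 64718123 to 64733578), went from 112, 96.4 and 125 to 236, 169 and 223, a 1.88-fold rise with an adjusted p close to the threshold (log2 difference 0.90, SE 0.21, adjusted p = 0.0482 by limma). These 3 genes act in the same stretch of the pathway, and in each the lowest knockout male was above the highest wild-type male.

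Other enzymes of the late pathway did not pass. Hsd17b7, which reduces the ketone left by Nsdhl, was at 19.3 ± 2.56 FPKM in knockout and 11.7 ± 4.90 in wild-type males, without overlap (adjusted p = 0.167 by limma). Dhcr7, a reductase of the last steps, was at 50.2 ± 13.3 against 33.4 ± 8.21, with overlap. The sterol isomerase Ebp was at 97.7, 155 and 119 in wild-type males and 104, 117 and 132 in knockout males. The sterol reductase Tm7sf2 was at 46.6 ± 6.34 in knockout against 50.4 ± 12.0. For Ebp and Tm7sf2 the log2 differences were -0.05 (SE 0.16) and -0.10 (SE 0.16). In both genes the highest male library was wild-type male 2, the one poor in long transcripts. Tm7sf2 had 64.3 FPKM there against 42.9 and 44.1 in the other wild-type males. Sc5d, the sterol desaturase, was at 274 ± 39.9 against 226 ± 52.7.

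**Figure D1:**
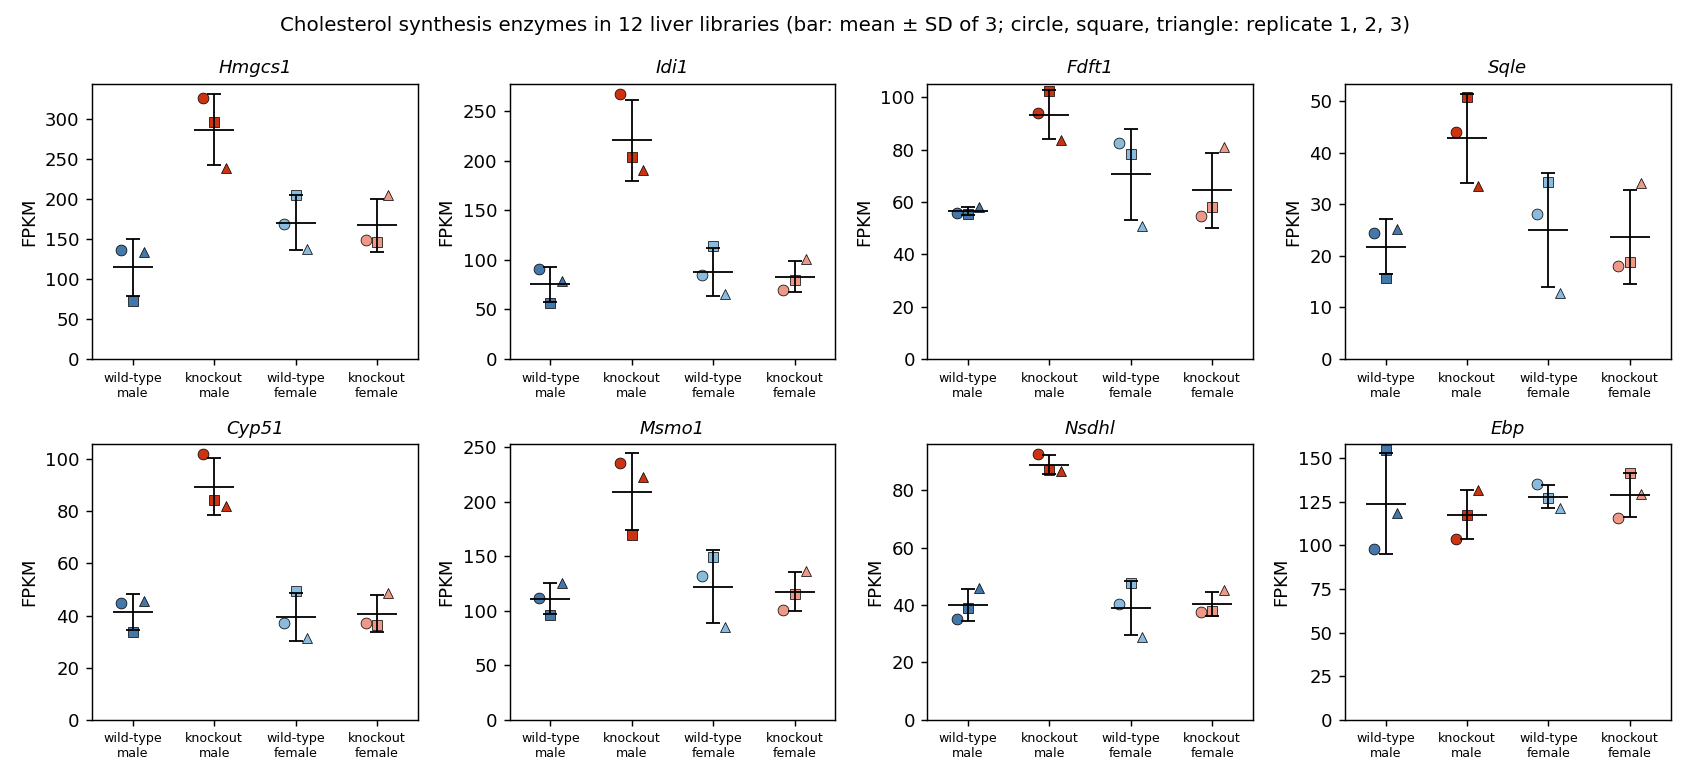
FPKM (vertical axes, from 0) of 8 enzymes in the 12 libraries, by group, with circle, square and triangle for replicates 1, 2 and 3 and a bar for the mean ± SD of 3. In Hmgcs1, Idi1, Fdft1, Sqle, Cyp51, Msmo1 and Nsdhl all 3 knockout males lie above all 3 wild-type males, and in Ebp the groups overlap.

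The calls in males rested on the spread shared by the 4 groups. When limma was given just the 6 male libraries, 0 of the 29 members it tested were called, and over all genes 7 rose and 1 fell. Of the 29 members 12 had an unadjusted p under 0.05 in that fit. With all 12 libraries fitted, 13 of the 30 genes and 2752 of the 11514 tested genes were at such a p. Leaving out knockout male 1 left 2 calls, leaving out knockout male 2 left 3, and leaving out the 3 libraries holding transcripts of the opposite sex, chosen after seeing the data, left 1, Idi1. With any single library left out, Idi1 and Nsdhl were called in 12 of 12 such fits, Cyp51 in 11, Hmgcs1 in 10 and Msmo1 in 1. Median-ratio scaling, which took the median difference of all genes to 0.01, left 4 calls, and the 30 genes then had a median of 0.30.

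Promoter letters of the sterol genes were read directly. RefSeq promoter windows on GRCm38.p6 were found for 25 of the 31 genes, and the 250 bases before each start were searched on both strands. Fdps, Fdft1, Sqle, Stard4, Npc1 and Soat2 had no window. The CCAAT letters, the core of the site bound by the factor NF-Y, stood in 20 of the 25 genes (80%), against 37.5% of all genes with a window and 40.7% of the tested ones. All 5 called enzymes held them, and so did most of the genes with a window that were not called, among them Mvk, Hsd17b7, Ebp, Tm7sf2 and Pmvk. The letters therefore do not set the called enzymes apart. The GC box GGGCGG stood in 20 of 25, against 35.4% of all genes and 62% of the tested ones. The E-box CACGTG stood in 5 of 25 (Hsd17b7, Sc5d, Dhcr7, Insig1 and Scap), against 6.86% of all genes and 10% of the tested ones.

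The letters TCACNCCAC, a strict form of the sterol regulatory element bound by SREBPs, stood in 1 of the 25 genes, Hmgcs1, against 1.22% of all genes and 1.39% of the tested ones. A shorter form, CACNCCAC, tried after seeing that result and contained in the first, stood in Hmgcs1, Acat2 and Insig1, against 6.05% of all genes and 6.53% of the tested ones. The bases before the start of the 5 called enzymes are shown because these genes rose together. Each sequence holds the 150 bases before the start, 5′ to 3′ on the strand of the gene, on GRCm38.p6, with capitals for CCAAT on either strand (read as ATTGG on the opposite one) and, in Hmgcs1, for the sterol regulatory letters as well.
Hmgcs1, chr13:119690201-119690350, plus strand: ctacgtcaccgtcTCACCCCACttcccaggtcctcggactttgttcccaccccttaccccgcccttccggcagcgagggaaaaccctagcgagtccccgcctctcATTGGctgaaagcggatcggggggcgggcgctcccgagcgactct
Idi1, chr13:8885456-8885605, plus strand: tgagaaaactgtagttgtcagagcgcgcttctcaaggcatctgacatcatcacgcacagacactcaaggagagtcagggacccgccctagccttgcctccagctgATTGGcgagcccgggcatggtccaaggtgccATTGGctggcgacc
Cyp51, chr5:4104698-4104847, minus strand: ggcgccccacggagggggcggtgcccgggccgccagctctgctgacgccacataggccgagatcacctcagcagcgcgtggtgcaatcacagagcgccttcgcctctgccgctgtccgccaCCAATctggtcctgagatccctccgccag
Msmo1, chr8:64733579-64733728, minus strand: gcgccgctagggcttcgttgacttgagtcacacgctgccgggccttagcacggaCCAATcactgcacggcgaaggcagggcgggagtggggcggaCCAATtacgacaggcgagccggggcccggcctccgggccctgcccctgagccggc
Nsdhl, chrX:72918371-72918520, plus strand: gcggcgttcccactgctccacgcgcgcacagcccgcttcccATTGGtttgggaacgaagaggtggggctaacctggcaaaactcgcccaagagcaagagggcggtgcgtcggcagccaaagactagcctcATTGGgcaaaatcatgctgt
Within these 150 bases Idi1, Msmo1 and Nsdhl each hold 2 CCAAT matches, and Hmgcs1 and Cyp51 hold 1 each. A match describes letters only, and binding was not measured. Other forms of the sterol regulatory element were not searched, so a gene without a match may still hold a site.

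Of the genes that sense sterols or process SREBP2, 0 of 6 were called in males. Srebf2, which encodes SREBP2, was at 8.72, 4.44 and 8.36 FPKM in wild-type males and 14.6, 10.8 and 7.28 in knockout males, with overlap. Insig1, itself a gene switched on by SREBPs, was at 145, 87.0 and 124 against 100, 133 and 148. Its ranges overlapped, and the log2 difference was 0.11 (SE 0.27, adjusted p = 0.82 by limma). Insig2, the other Insig gene, known to be made under separate control in liver, was at 78.7, 64.8 and 70.0 against 97.3, 134 and 92.5. All knockout males were above all wild-type males in Insig2, and the gene did not pass (log2 difference 0.58, SE 0.28, adjusted p = 0.228 by limma). Scap was at 15.3 ± 2.85 in knockout against 18.3 ± 5.66. The protease genes Mbtps1 and Mbtps2 were at 14.9 ± 3.40 against 12.0 ± 2.72 and at 2.23 ± 0.125 against 1.60 ± 0.688, with no overlap in Mbtps2.

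Transport and esterification genes were not called in males either, 0 of 5. Npc1, which moves cholesterol out of lysosomes, was at 24.0, 12.6 and 24.5 FPKM in wild-type and 17.5, 15.2 and 14.2 in knockout males. Its log2 difference of -0.31 (SE 0.22) was -0.61 without wild-type male 2 (adjusted p = 0.0773 by limma). The lysosomal sterol carrier Npc2 was at 17.0 ± 4.35 against 15.1 ± 2.10. Stard4, a cytosolic sterol carrier, was at 18.9, 4.05 and 12.1 in wild-type males and 17.0, 10.3 and 9.39 in knockout males and these ranges overlapped. Soat2, the main cholesterol esterifying enzyme of hepatocytes, was at 17.1 ± 3.30 against 17.3 ± 3.40. Soat1, the form found in most other cells, was at 0.900 ± 0.517 against 0.380 ± 0.0872.

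**Figure D2:**
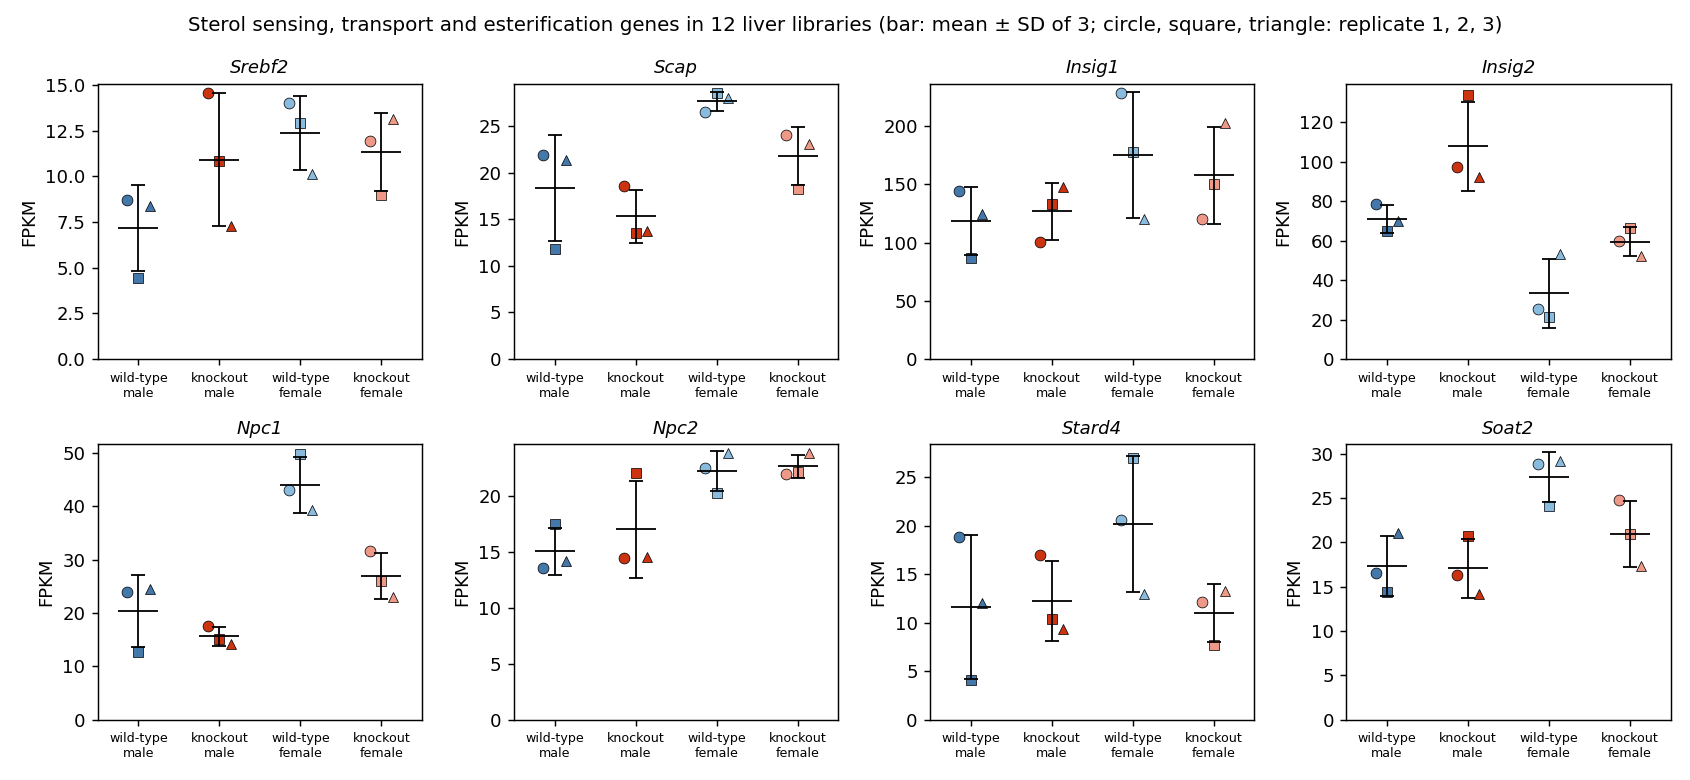
FPKM (vertical axes, from 0) of 8 genes of sterol sensing, transport and esterification in the 12 libraries, by group, with circle, square and triangle for replicates 1, 2 and 3 and a bar for the mean ± SD of 3. Wild-type females are highest in Npc1 and lowest on average in Insig2, and wild-type male 2 is the lowest library in Stard4, Srebf2 and Scap.

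In females 0 of the 30 genes were called between knockout and wild type by limma. Of all genes 0.0174% were called, 0.00869% up and 0.00869% down. An unadjusted p under 0.05 was reached by 2 of the 30 (Insig2 and Npc1) and by 706 of the 11514 tested genes, a similar share. The 5 enzymes that rose in males had log2 differences of -0.06 to 0.07 in females, with SE of 0.17 to 0.25. The median over the 30 genes was -0.08, and 0.00 over all genes. Insig2 was at 25.4, 21.1 and 53.5 FPKM in wild-type and 59.9, 66.6 and 52.1 in knockout females (log2 difference 0.93, SE 0.28, adjusted p = 0.593 by limma). Wild-type female 3 lay among the knockout values, apart from the other wild-type females. Leaving that library out takes away the wild-type value nearest the knockouts and so enlarges the difference. Insig2 was then called, at 1.32 (adjusted p = 0.0393 by limma), which is no added support. With any other single library left out, Insig2 was not called. Npc1 was at 43.0, 49.8 and 39.3 in wild-type and 31.6, 26.0 and 23.1 in knockout females, without overlap (log2 difference -0.70, SE 0.22, adjusted p = 0.672 by limma). Scap and Mbtps1 also lay below wild type in all 3 knockout females, at 21.8 ± 3.10 against 27.7 ± 1.04 FPKM and at 12.4 ± 1.29 against 14.003 ± 0.457. Tm7sf2 lay above, at 66.3 ± 1.64 against 53.1 ± 5.77. Groups without overlap made up 9.22% of all genes with knockout above and 8.42% with knockout below. Of the remaining enzymes, Lss was at 11.1 ± 4.02 against 17.8 ± 7.42 and Sc5d at 285 ± 34.1 against 387 ± 81.7, both with overlap.

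**Figure D3:**
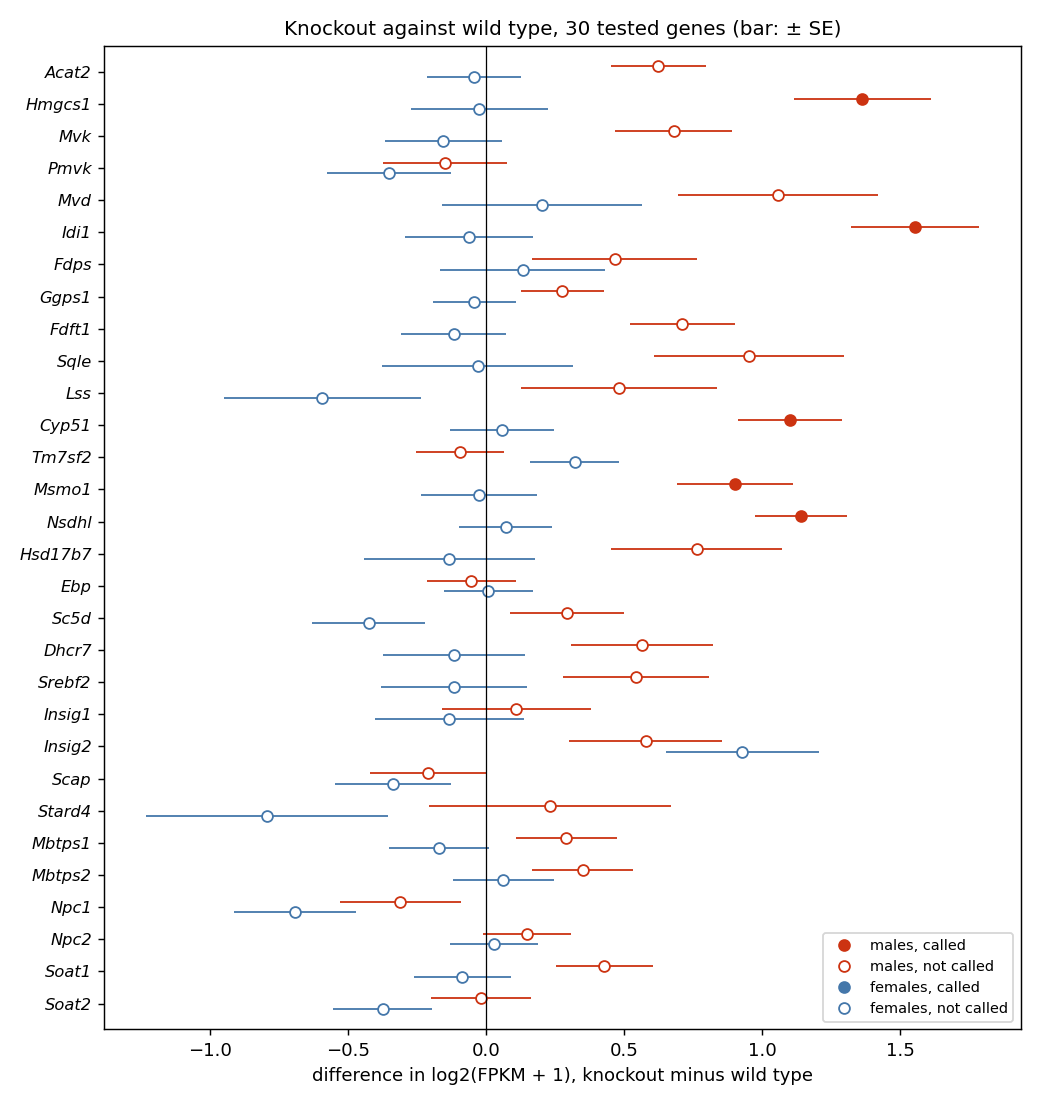
Difference in log2(FPKM + 1) between knockout and wild type (horizontal axis) for the 30 tested genes, in males (red) and females (blue), with bars for ± SE and filled points for genes called by limma. The filled points are Hmgcs1, Idi1, Cyp51, Msmo1 and Nsdhl in males, whose female values lie between -0.06 and 0.07.

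Whether the effect of genotype differed between the sexes was tested by the interaction. By limma 0 of the 30 genes were called (0.0261% of all genes, 0.0174% up and 0.00869% down), and 9 had an unadjusted p under 0.05, as did 1040 of the 11514 genes. The highest values were in Idi1, where the male effect exceeded the female one by 1.61 (SE 0.33, adjusted p = 0.216), and in Hmgcs1, by 1.39 (SE 0.35, adjusted p = 0.386). Nsdhl and Cyp51 had 1.07 (SE 0.24) and 1.05 (SE 0.27), with adjusted p = 0.312 and 0.389 by limma. A difference between the sexes is therefore not shown for any of these genes. The median over the 30 genes was 0.66, and 0.20 over all genes.

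Between wild-type males and females 5 of the 30 genes were called, a share near that of all genes. Insig2 was higher in males and Npc1, Npc2, Soat2 and Sc5d were lower in males, while 25 did not pass. Over all genes 2.31% were higher in males and 11.1% lower, 13.4% in all. Insig2 was 2.14-fold higher in males (log2 difference 1.18, SE 0.28, adjusted p = 0.0184 by limma), with the lowest male at 64.8 FPKM and the highest female, wild-type female 3, at 53.5. Npc1 was 2.16-fold higher in females, where all libraries had at least 39.3 FPKM against at most 24.5 in males (log2 difference -1.12, SE 0.22, adjusted p = 0.00805 by limma). Npc2 was at 15.1 ± 2.10 in males and 22.3 ± 1.81 in females, Soat2 at 17.3 ± 3.40 and 27.4 ± 2.86, and Sc5d at 226 ± 52.7 and 387 ± 81.7. Their adjusted p-values were 0.0467, 0.0382 and 0.03 by limma. The groups did not overlap in 8 genes lower in males, against 34.1% of all genes, and in 1 gene higher in males, against 6.04%. The others without overlap were Hmgcs1, Srebf2, Scap and Soat1, which did not pass.

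The median log2 difference between wild-type males and females was -0.22 over the 30 genes, near the -0.21 of all genes. With median-ratio or quantile scaling, which took the latter to -0.002 and 0.01, the calls left were Insig2, higher, and Npc1, lower. Without wild-type female 1 or 2, the only call left was Npc1. Without the 3 libraries holding transcripts of the opposite sex 0 were called by limma, with 9 at an unadjusted p under 0.05. With all 12 libraries fitted, 10 of the 30 genes were at such a p, as were 3781 of the 11514 tested genes, a similar share.

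In knockout mice 4 enzymes were called between the sexes. Idi1, Cyp51, Nsdhl and Acat2 were higher in males, 0 of 30 genes were called lower, and of all genes 1.67% were called higher and 2.01% lower, 3.67% in all. The folds were 2.65 in Idi1, 2.20 in Cyp51, 2.21 in Nsdhl and 1.73 in Acat2, with adjusted p = 0.00598, 0.00618, 0.00296 and 0.0287 by limma. The knockout males are the same libraries as in the comparison of genotypes, so these values are not a second measurement of their high level. Knockout males lay above knockout females without overlap in 12 of the 30 genes, against 10.1% of all genes, among them Hmgcs1, Msmo1, Fdps, Fdft1, Lss and Insig2. They lay below in Npc1 and Tm7sf2, against 12% of all genes. Without the 3 libraries holding transcripts of the opposite sex 0 were called by limma, with 11 at an unadjusted p under 0.05. With all 12 libraries fitted, 17 of the 30 genes and 1782 of the 11514 tested genes were at such a p. Without wild-type male 2, which serves only the spread here, 8 were called, with Hmgcs1 and Msmo1 higher and Npc1 and Tm7sf2 lower in addition.

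**Figure D4:**
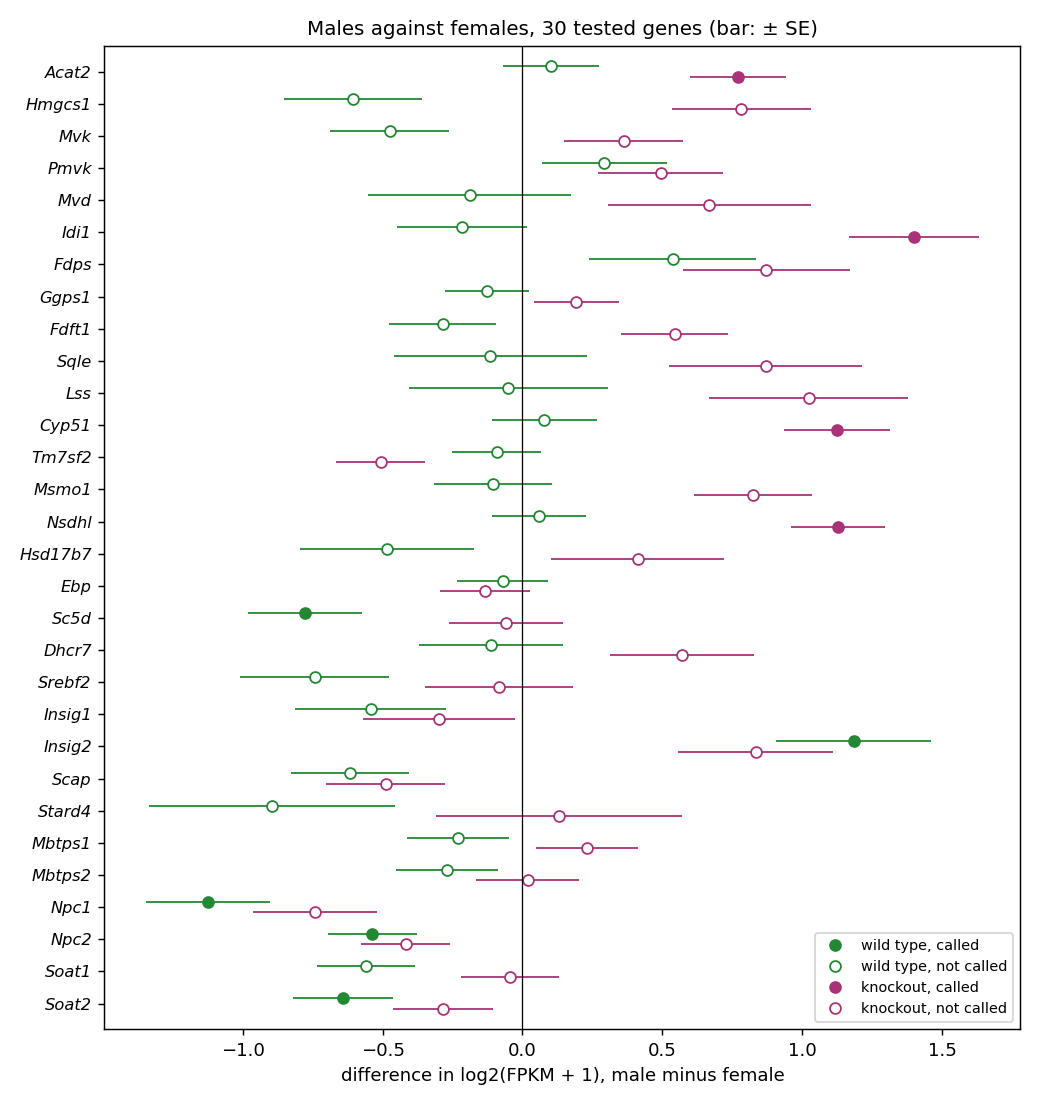
Difference in log2(FPKM + 1) between males and females (horizontal axis) for the 30 tested genes, in wild type (green) and knockout (purple), with bars for ± SE and filled points for genes called by limma. Filled green points are Insig2 above 0 and Sc5d, Npc1, Npc2 and Soat2 below, and filled purple points are Acat2, Idi1, Cyp51 and Nsdhl.

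Libraries of one group also differed in the pathway as a whole. Wild-type female 3 was the lowest of its group in all 18 tested enzymes of the route to cholesterol, Ggps1 left out, where 37.3% of all tested genes had their lowest value in that library. Mvd was at 5.40 FPKM there against 14.9 and 15.1, Sqle at 12.8 against 28.1 and 34.3, and Lss at 9.28 against 21.96 and 22.3. Insig2 was the highest of its group in the same library. The 19 enzyme genes, Idi2 included, summed to 1105 FPKM in wild-type female 3, against 1614 and 1639 in wild-type females 1 and 2. Knockout females had sums of 1190 to 1563, wild-type males of 1183 to 1388 and knockout males of 1811 to 2129. Knockout males lay above every other library in this unscaled sum. As a share of all FPKM in the library they did not: knockout male 3 had 0.301%, below the 0.304% of wild-type female 2. Knockout female 3 was the highest of its group in 15 of the 18 enzymes, where 30.5% of all genes had their highest value. Knockout male 3 was the lowest of its group in 12 of the 18, and 51.1% of all genes were lowest there. What sets these libraries apart was not tested.

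**Figure D5:**
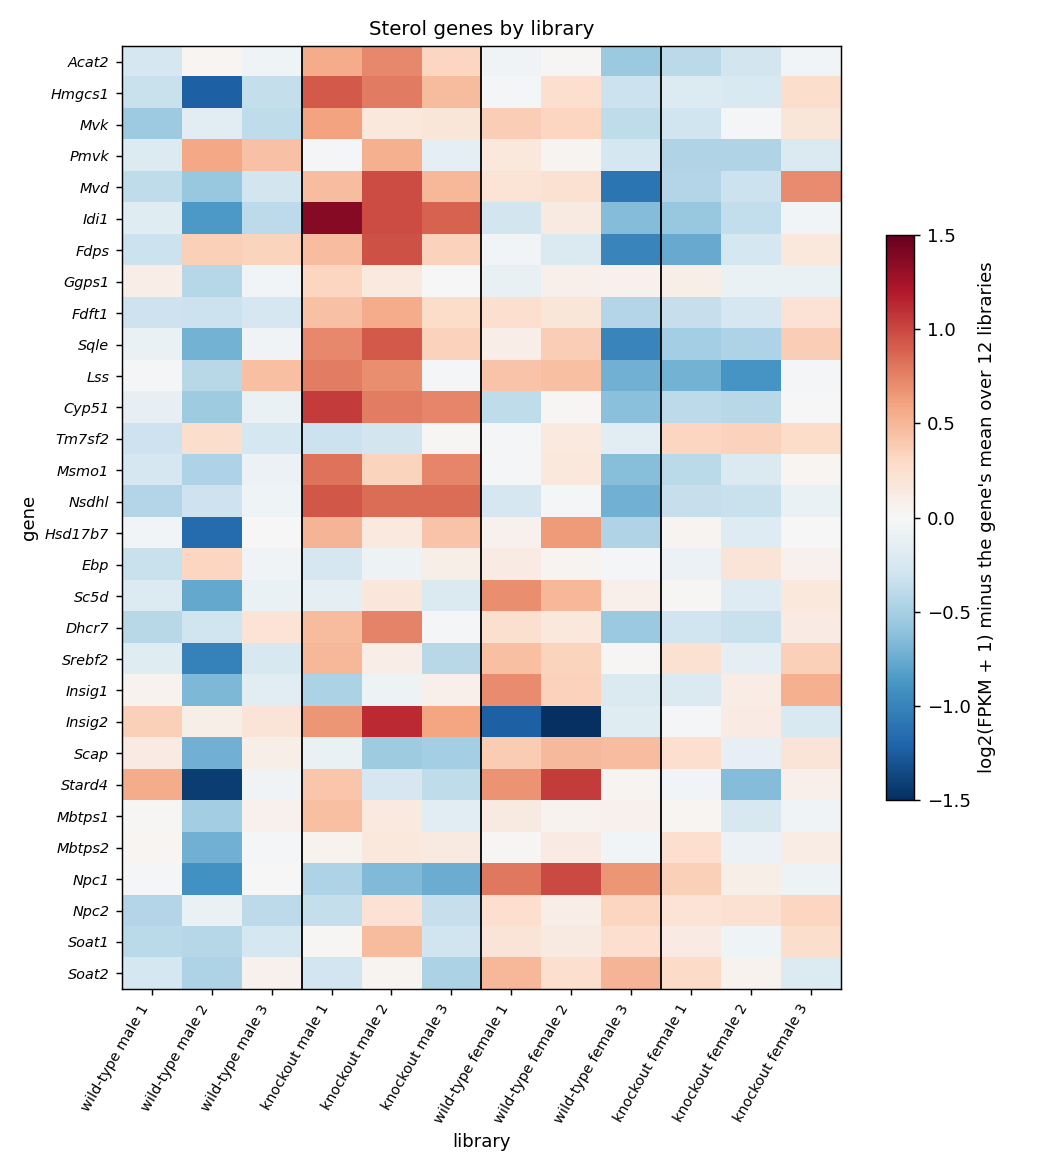
Log2(FPKM + 1) minus the mean of the gene over the 12 libraries (colour, red above and blue below) for the 30 tested genes (rows) in each library (columns, grouped by genotype and sex). Most enzyme rows are red in the 3 knockout males and blue in wild-type female 3, while Insig2 is darkest blue in wild-type females 1 and 2.

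Other genes that handle sterols or isoprenes were read from lists. Among 16 tested partners of sterol sensing and protein degradation in the endoplasmic reticulum, 2 rose in males lacking OXR1A while 14 did not pass, with a median of 0.36 beside 0.19 for all genes. Syvn1, a ubiquitin ligase that removes faulty proteins there, rose from 20.3 ± 4.09 to 41.3 ± 6.12 FPKM (log2 difference 0.99, SE 0.17, adjusted p = 0.0185 by limma). Sar1a, which forms the vesicles that leave the endoplasmic reticulum, rose from 20.4 ± 0.978 to 28.9 ± 2.07 (adjusted p = 0.0283). From a list of other sterol pathway genes, the mitochondrial thiolase Acat1 rose from 144 ± 7.53 to 224 ± 18.6 (adjusted p = 0.021 by limma). The bile acid enzyme Cyp27a1, which hydroxylates sterols, fell from 280 ± 11.4 to 192 ± 22.5 (adjusted p = 0.0294 by limma). None was called among 14 genes of the isoprenoid branch (median 0.26), 12 of sterol efflux and liver X receptor targets (median 0.13) and 17 of sterol transport and uptake (median 0.23). In females 0 genes of these lists were called by limma. The sterol exporters Abcg5 and Abcg8 differed between the sexes in wild type, at 19.8 ± 3.36 in males against 36.5 ± 3.27 in females and at 15.7 ± 2.57 against 37.6 ± 4.997 (adjusted p = 0.0189 and 0.00789 by limma). Of the 12 tested genes of their list 3 were called lower in wild-type males and 0 higher, where 11.1% of all genes were called lower. The third was Nr1h2, at 13.5 ± 1.35 against 21.6 ± 1.94 (adjusted p = 0.00926 by limma).

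Markers of some other liver cells rose with the genotype in males. Over all tested genes 2.13% were called up there, with a median log2 difference of 0.19. Of 11 tested macrophage markers 6 rose (median 1.20), and their summed level was 335 to 783 FPKM in knockout and 150 to 291 in wild-type males. Of 10 markers of sinusoidal endothelium 5 rose, and the sum was 116 to 131 against 74.7 to 85.8. Of 10 stellate cell and matrix markers 1 rose, with sums of 207 to 304 against 148 to 162. None of these markers was at 0 in a whole group. In wild-type females the 3 sums were 385 to 594, 139 to 157 and 241 to 262. Between the sexes in wild type, 8 of the 11 macrophage markers were called lower in males. So were 9 of the 10 endothelial and 4 of the 10 stellate cell and matrix markers, against 11.1% of all genes. Cholangiocyte and lymphocyte markers were not called in males, 0 of 4 and 0 of 6 tested (medians 0.15 and 0.02), and their sums overlapped. The sum of the 8 hepatocyte markers was lower in knockout males, at 58886 to 62502 FPKM against 65971 to 82516 in wild-type males. Of these hepatocyte markers 0 were called, 1 had a positive log2 difference, and the median was -0.28. The sum of 8 periportal hepatocyte genes was 34261 to 37438 FPKM in knockout and 42809 to 48109 in wild-type males. Alb is among them, at 31720 to 45904 FPKM over the 12 libraries, so this sum is mostly albumin. Of these 8 genes 1 was called lower. The sum of 8 pericentral genes overlapped, at 4043 to 6097 against 4569 to 5507, and 1 of them was called higher. In bulk tissue, fewer cells of a type and less RNA per cell cannot be told apart. The part of these shifts in the values of the sterol genes, between genotypes or between sexes, was not tested.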

How the data were processed

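Liver RNA was measured in 12 libraries. Per the labels' protocols, RNA came from an RNeasy preparation, mRNA was taken with oligo(dT) beads, and N6-primed cDNA was ligated to adaptors, amplified and circularized. The authors deposited FPKM values, per the file headers, with 2 decimals for 18560 genes; TopHat2 and mm10 are named in the submitters' processing notes, without roles. Quantifier, annotation and sequencing depth: not given in the sources used here. Selections of 143 and 886 low genes, read for steps of whole reads, gave knockout male 2 a depth of 1.26 and 1.01 relative to wild-type female 1, so relative depth was not used and no counting intervals were made. At most 0.295% of values of at least 5 FPKM were identical between libraries, and 0 columns were left out.

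The 11514 genes reaching 1 FPKM in 3 or more libraries were fitted with limma 3.58.1 (R 4.3.3) on log2(FPKM + 1) values, with 1 mean per group, a variance trend and two-sided tests, adjusted over all tested genes. The test was also run on simulated data with independent noise in each gene. Those data lack shifts shared by many genes of a library, so that run cannot speak for calls under such shifts. Each gene found was named; of other lists, up to 3 genes with the smallest p per comparison. One gene of the other lists, and the count of its list, are not reported here. Members and lists were chosen with earlier results of these data known. Coordinates and promoters are RefSeq's, GRCm38; transcript lengths are from GENCODE M21 (99.3% of genes). Alternatives were a pseudocount of 0.1, no filter, a filter at a mean of 5 FPKM, scaling by median ratio or quantiles, a replicate block, array weights, omitting the variance trend, fitting just the groups compared, and each library left out. A length correction and leaving out the 3 libraries holding transcripts of the opposite sex were added after seeing the data.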

Additional observations from a re-analysis of the deposited data

How the results depend on the processing

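No gene that limma called changed direction under any alternative run. For knockout against wild type in males the 5 calls became 3 with quantile normalization, 1 with array weights (Nsdhl), 0 in the fit of the groups compared alone and 1 without the 3 libraries holding transcripts of the opposite sex; leaving out single libraries gave 2 to 6, with 2 without knockout male 1 and 3 without knockout male 2. Removing the length trend gave 7, adding Acat2 and Fdft1. In females the 0 calls became 2 with array weights (Insig2 higher, Npc1 lower in knockout), and 0 to 1 with single libraries left out, the 1 being Insig2 without wild-type female 3. Males against females in wild type gave 5 calls, against 3 without a filter, 2 with median-ratio scaling, 2 with quantile normalization, 3 with the replicate block and 0 without the 3 libraries; leaving out single libraries gave 1 to 6, with 1 without wild-type female 1 or 2 and 3 without knockout female 2 or either of wild-type males 1 and 2. Males against females in knockout gave 4 calls, against 7 with the length trend removed, 0 without the 3 libraries, and 3 to 8 with single libraries left out. The interaction kept 0 calls throughout. Same-numbered libraries of different groups correlated above 0.1 in 6 of 18 pairs (-0.32 to 0.56), so the numbers were not taken to pair them; with the replicate block 4 of the 5 male calls were left, without Msmo1. With 3 libraries a group and unknown depth, differences of low genes such as Soat1 and Idi2 could not be resolved.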
